A study of Mus musculus with 6 samples.

Results

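Timp1, Timp2 and Timp3 encode tissue inhibitors of metalloproteinases, and their transcripts were followed in lung cells of mice given the complement protein C1q. The 3 genes were taken by symbol from a table of 26890 genes, in which all 3 were present. C1q is the protein with which classical complement activation begins, by binding antibody or other targets. The C1q group held 3 libraries from C57BL/6 wild-type mice that had received C1q into the trachea at 20 µg per mouse, and the Saline group held 3 libraries from mice of the same strain and genotype labelled Saline, all taken at day 3. Per the labels' protocols, lungs were digested with Liberase and DNase I, cells were separated on a Percoll gradient, and poly(A) RNA was read at the 5′ end, so the values describe a cell suspension and not intact lung. The labels do not say that each library came from a separate animal, and p-values then measure the spread between these libraries, which may be technical. With no other protein instilled as a control, a response to C1q and a response to any instilled protein cannot be told apart.

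Tissue inhibitors of metalloproteinases, or TIMPs, are small secreted proteins that insert their amino-terminal end into the zinc-containing active site of matrix metalloproteinases (MMPs) and block it. TIMP-1 is the inducible member, raised by cytokines and in injured or scarring lung, and it also binds the surface protein CD63. TIMP-2 is made broadly and, besides inhibiting, links the proenzyme of MMP-2 to the membrane enzyme MMP-14 that activates it. TIMP-3 is bound to the extracellular matrix and also blocks ADAM17 and the aggrecan-cutting ADAMTS enzymes.

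The promoters are shown because Timp1 was called and its paralogues were not, with capitals marking every match to the motifs searched. Each window runs from 250 bases before to 50 bases after the RefSeq start (GRCm38.p6), 5′ to 3′ on the strand of the gene: chrX:20869916-20870215 (plus strand) for Timp1, chr11:118355362-118355661 (minus strand) for Timp2 and chr10:86300162-86300461 (plus strand) for Timp3.
Timp1: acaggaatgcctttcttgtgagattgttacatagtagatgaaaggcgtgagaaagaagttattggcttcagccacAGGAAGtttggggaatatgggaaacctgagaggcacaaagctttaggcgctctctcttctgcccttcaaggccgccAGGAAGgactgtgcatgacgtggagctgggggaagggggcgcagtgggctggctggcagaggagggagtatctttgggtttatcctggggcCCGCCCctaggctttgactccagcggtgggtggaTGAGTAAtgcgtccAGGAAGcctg
Timp2: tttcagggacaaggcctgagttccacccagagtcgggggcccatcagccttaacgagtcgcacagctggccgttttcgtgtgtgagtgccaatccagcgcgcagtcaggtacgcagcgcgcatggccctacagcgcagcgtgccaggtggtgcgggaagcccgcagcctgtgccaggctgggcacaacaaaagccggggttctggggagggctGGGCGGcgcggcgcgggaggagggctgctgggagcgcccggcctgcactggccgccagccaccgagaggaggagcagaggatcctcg
Timp3: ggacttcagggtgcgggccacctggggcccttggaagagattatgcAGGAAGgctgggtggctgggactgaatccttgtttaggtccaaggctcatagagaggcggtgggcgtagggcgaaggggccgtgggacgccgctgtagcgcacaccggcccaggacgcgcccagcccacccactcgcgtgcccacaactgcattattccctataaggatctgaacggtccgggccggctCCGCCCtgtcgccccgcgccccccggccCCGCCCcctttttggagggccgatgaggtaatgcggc

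The motifs were searched on both strands and were chosen after these sequences had been seen. The AP-1 consensus was searched as TGAGTCA and a known variant of that site as TGAGTAA. The site of ETS factors, among them PEA3, was searched as AGGAAG, whereas the site of the general factor Sp1 was written GGGCGG in this search. The Runx factors were represented by the letters TGTGGT, the STAT factors were represented by the letters TTCNNNGAA, and the TATA box of core promoters was searched as TATAAA. No matches in the printed windows overlapped each other. The Timp1 window held TGAGTAA from position 27 to 33 after the start, a match present in 2.68% of 32851 RefSeq promoter windows. In mouse cells this element of the Timp1 gene is known to bind AP-1 factors together with an adjacent ETS site, and AGGAAG was found from position 41 to 46. AGGAAG, which 35.4% of windows held, also matched at -175 and -99 in Timp1, and once in Timp3 at -204. GGGCGG or its complement occurred in all 3 windows and in 35.7% of all windows. The AP-1 consensus, Runx, STAT and TATA box motifs had no match in the 3 windows. Timp1 also had the lowest G and C content, 55% with 8 CpG pairs, against 68.7% with 25 in Timp2 and 67.0% with 24 in Timp3. A match describes letters and not a bound site.

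Timp1 lies on chromosome X from 20870166 to 20874735, Timp2 on chromosome 11 from 118301069 to 118355740 and Timp3 on chromosome 10 from 86300372 to 86349506 (GRCm38, GENCODE M21), all protein-coding. Timp1 and Timp3 sit inside the synapsin genes Syn1 and Syn3, which are read from the opposite strand and encode synaptic vesicle proteins. Timp1 shared 0 annotated exon bases with Syn1, and Timp3 shared 1733 with Syn3. No source used here says whether strand was used in counting, so reads on exon bases that overlapping genes share cannot be told apart. Syn1 had 1 to 4 counts per library, at most 5.71% of those of Timp1, and Syn3 had 16 to 47, at most 2.02% of those of Timp3. How reads on shared bases were assigned is not stated. Timp2 overlaps Cep295nl on the same strand with 0 shared exon bases, and that gene had 2 to 6 counts.

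Library totals ranged from 2227619 to 3650793 counts, and 3 counts correspond to 0.822 to 1.35 counts per 1000000 (CPM). Markers of the labelled tissue were abundant. The 6 alveolar type 2 markers summed to 31014 to 33562 CPM in C1q libraries and 22862 to 43883 CPM in Saline libraries. The 10 fibroblast markers summed to 5447 to 6441 CPM in C1q libraries and 4340 to 6258 CPM in Saline libraries.

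Timp1 transcript rose about 3-fold in the lung cells of C1q-treated mice. It had 131, 99 and 80 counts in C1q replicates 1 to 3, against 35, 35 and 27 counts in Saline replicates 1 to 3. Scaled to library size with TMM, a trimmed-mean scaling, these were 36.2, 34.9 and 36.1 CPM in C1q libraries, against 11.3, 14.2 and 10.1 CPM in Saline libraries. All C1q libraries lay above all Saline libraries, and even the exact 95% counting intervals of single libraries did not meet, the lowest C1q bound being 28.4 CPM and the highest Saline bound 19.7 CPM. The means were 35.8 ± 0.725 CPM with C1q and 11.8 ± 2.1 CPM with saline (SD, n = 3 each).

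The log2 fold change of Timp1 was 1.60 ± 0.20 (SE), with a 95% interval of 1.16 to 2.03, and Timp1 passed edgeR's quasi-likelihood test (Benjamini-Hochberg adjusted p = 0.0316 over 13473 genes). It had the third smallest p-value of all genes tested. Of these genes 0.0297% were called, all higher, and no gene was called lower by edgeR, where 531 lower genes had an unadjusted p under 0.05 and DESeq2 called 1. The call was lost in 4 of the 6 fits that left out 1 library. Without C1q replicate 1, 2 or 3 the adjusted p was 0.297, 0.109 and 0.0704, and without Saline replicate 1 it was 0.471, while the log2 fold change stayed between 1.50 and 1.74 whichever library was left out. The SD between C1q libraries, 0.725 CPM, was smaller than the 3.59 CPM that counting alone would give at these depths, so it understates the error of a C1q library.

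**Figure D1:**
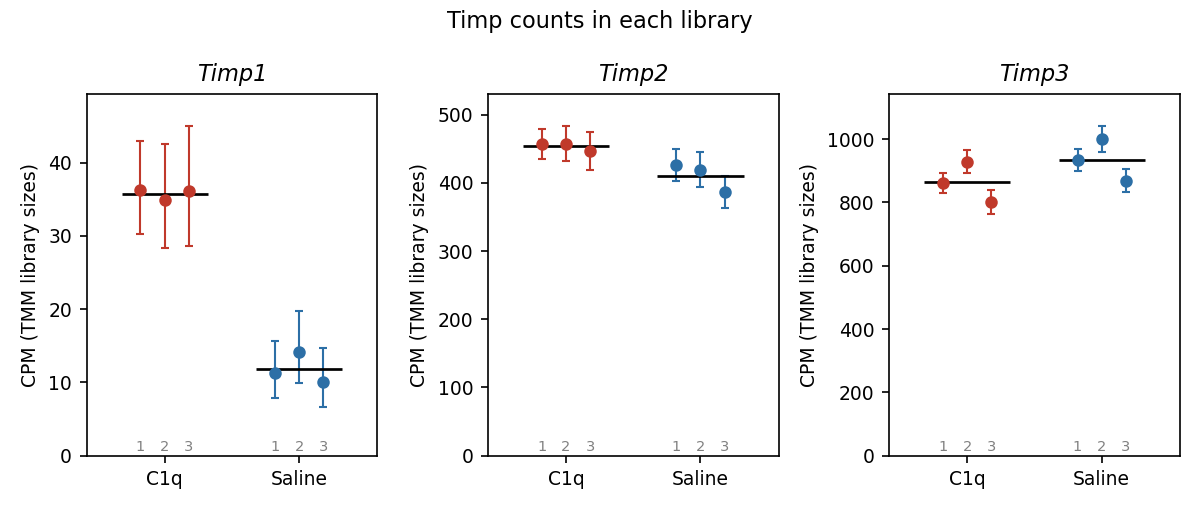
CPM of Timp1, Timp2 and Timp3 in each library (replicates 1 to 3 from left to right in each group), with exact 95% intervals for counting error only and the group mean as a black line; each panel has its own axis from 0. Timp1 stands at 34.9 to 36.2 CPM in C1q libraries and 10.1 to 14.2 CPM in Saline libraries, whereas Timp3 overlaps between the groups.

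Timp2 was slightly higher in the C1q libraries and did not pass the test. Its levels were 456, 457 and 446 CPM in C1q replicates 1 to 3, against 426, 419 and 386 CPM in Saline replicates 1 to 3, from 989 to 1650 counts a library. The C1q libraries again lay above all Saline libraries, as they did for 8.12% of all genes tested. The means were 453 ± 5.95 CPM with C1q and 410 ± 21.3 CPM with saline (SD, n = 3 each). The log2 fold change was 0.14 ± 0.14 (SE), edgeR adjusted p = 0.776, and its 95% interval of -0.16 to 0.45 corresponds to 0.894-fold to 1.37-fold. As with Timp1, the spread of the C1q libraries was below the counting error, which was 12.8 CPM.

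Timp3 overlapped between the groups. It stood at 861, 929 and 800 CPM in C1q replicates 1 to 3, against 934, 999 and 868 CPM in Saline replicates 1 to 3. The highest C1q library was above 1 of the 3 Saline libraries, and the lowest C1q library was below all of them. The means were 863 ± 64.2 CPM with C1q and 934 ± 65.9 CPM with saline (SD, n = 3 each), and these SDs exceeded the counting errors of 17.6 and 18.5 CPM. The log2 fold change was -0.11 ± 0.15 (SE), edgeR adjusted p = 0.843, with a 95% interval of -0.44 to 0.22, or 0.736-fold to 1.16-fold. Neither DESeq2 nor limma-voom called Timp2 or Timp3, and both called Timp1 (adjusted p = 0.000182 and 0.0438).

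**Figure D2:**
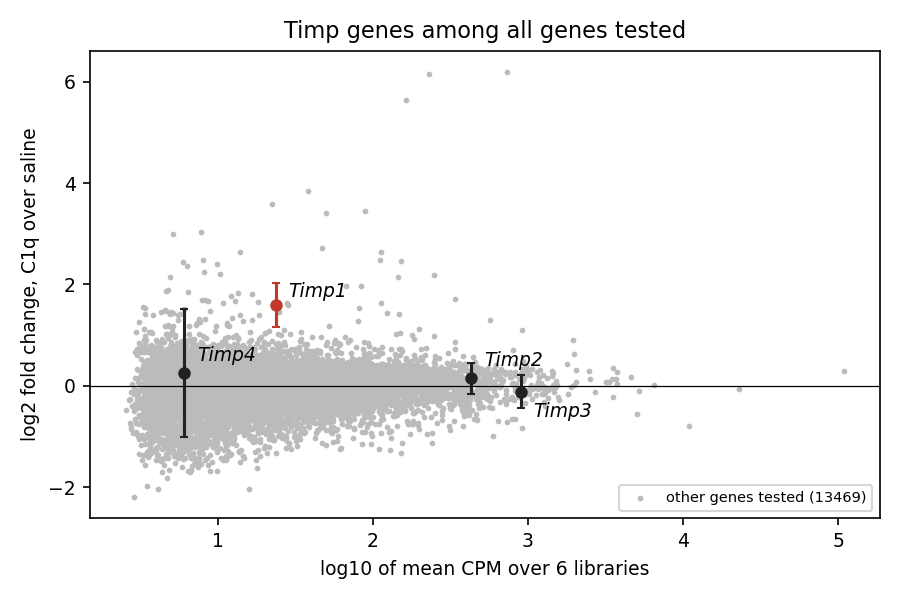
Log2 fold change of C1q over saline (edgeR) against the log10 of mean CPM for all 13473 genes tested in grey, with the 4 Timp genes and their 95% intervals; red marks an adjusted p under 0.05. Timp1 lies at 1.60, and the intervals of Timp2, Timp3 and Timp4 include 0.

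The balance among the 3 genes was read from raw counts within a library, where no scaling between libraries enters. There were 7.94, 7.64 and 8.09 Timp1 counts per 100 Timp2 counts in C1q replicates 1 to 3, against 2.64, 3.38 and 2.61 in Saline replicates 1 to 3. Per 100 Timp3 counts there were 4.21, 3.76 and 4.51 Timp1 counts in C1q libraries, against 1.21, 1.42 and 1.16 in Saline libraries. No C1q library reached into the Saline range in either ratio. On the log2 scale the Timp1 to Timp2 ratio averaged -3.66 ± 0.04 with C1q and -5.13 ± 0.21 with saline (SD, n = 3 each), a difference of 1.46 or 2.76-fold. The Timp1 to Timp3 ratio differed by 1.72, or 3.30-fold.

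The ratio of Timp2 to Timp3 moved less. It was 53.0, 49.2 and 55.8 Timp2 counts per 100 Timp3 counts in C1q libraries, against 45.6, 41.9 and 44.5 in Saline libraries. These ranges did not overlap either, and the log2 difference was 0.26, or 1.20-fold. For each of the 3 ratios the exact permutation test over libraries, two-sided, gave p = 0.1 and 0.1 after adjustment over the 3, which is the smallest p that 3 against 3 allows, so the design could not pass 0.05. In total counts of the 3 genes, Timp1 made up 2.46% to 2.81% in C1q libraries and 0.798% to 0.989% in Saline libraries. Their summed level was 1283 to 1421 CPM with C1q and 1264 to 1433 CPM with saline, so the sum overlapped.

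**Figure D3:**
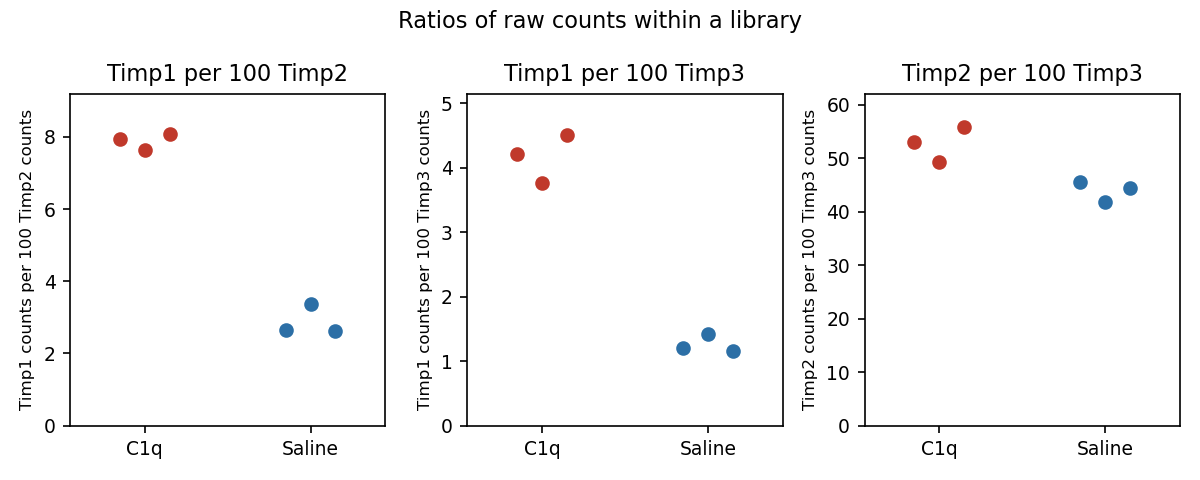
Raw counts of 1 Timp gene per 100 counts of another in each library (points, replicates 1 to 3 from left to right; axes from 0). Timp1 per 100 Timp2 lies at 7.64 to 8.09 in C1q libraries and 2.61 to 3.38 in Saline libraries, and Timp2 per 100 Timp3 at 49.2 to 55.8 in C1q libraries and 41.9 to 45.6 in Saline libraries.

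The fourth family gene, Timp4, was scarce. It had 21, 31 and 7 counts in C1q replicates 1 to 3 and 25, 18 and 4 in Saline replicates 1 to 3, or 5.81, 10.9 and 3.16 CPM with C1q against 8.04, 7.29 and 1.49 CPM with saline. The lowest library in each group stood well below its other libraries, and the groups overlapped. The log2 fold change of 0.25 ± 0.57 (SE, edgeR adjusted p = 0.919) had a 95% interval of -1.01 to 1.52, so even a 2.86-fold rise could not be told from no change at this depth. Timp4 lies on chromosome 6 inside Syn2 and shares 90 exon bases with it, and Syn2 had 10 to 25 counts a library. Reads of the 2 genes on those shared bases cannot be told apart here, and how many of the Timp4 counts lie on them is not known.

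Among other protease inhibitors and their matrix partners, 0 of 8 tested members were called by edgeR, DESeq2 or limma-voom with the filter on low counts. Without adjustment 3 had p under 0.05 in the higher direction, against 4.22% of all genes, and none in the lower one, and the median log2 fold change was 0.20, against -0.01 over all genes tested. Tfpi2, a Kunitz-type protease inhibitor of the matrix, stood at 10.2, 11.3 and 9.48 CPM with C1q against 4.18, 5.67 and 3.36 CPM with saline, a log2 fold change of 1.23 ± 0.33 (edgeR adjusted p = 0.410). Serpine2, which encodes protease nexin-1, was at 0.63 ± 0.18 and Pcolce, an enhancer of procollagen trimming, at 0.34 ± 0.15. Reck, the membrane-anchored MMP inhibitor, had -0.32 ± 0.18.

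The secreted MMPs, the main targets of TIMPs, were 12 in the table and 8 tested. With the filter on low counts, 0 of these were called by edgeR and by limma-voom and 3 by DESeq2, all higher. DESeq2 called 0.23% of all genes higher. Unadjusted p was under 0.05 for 4 of 8 members in the higher direction and 0 in the lower, against 4.22% and 3.94% of all genes, and the median log2 fold change was 0.62. Mmp12, the macrophage metalloelastase, stood at 10.2, 10.6 and 9.48 CPM in C1q libraries, against 1.93, 1.62 and 1.87 CPM in Saline libraries, with a log2 fold change of 2.45 ± 0.36 (edgeR adjusted p = 0.0905, DESeq2 adjusted p = 0.0120). Mmp2, gelatinase A, was at 202, 138 and 227 CPM with C1q and 105, 77.7 and 95.6 CPM with saline, a log2 fold change of 1.02 ± 0.20 (edgeR adjusted p = 0.245, DESeq2 adjusted p = 0.00596). Mmp19 followed at 0.89 ± 0.16 (edgeR adjusted p = 0.231, DESeq2 adjusted p = 0.0417) and Mmp23 at 0.64 ± 0.26. For Mmp12, Mmp2 and Mmp19 all C1q libraries lay above all Saline libraries, as they did for 8.12% of all genes tested. Mmp28 lay the other way, with all C1q libraries below all Saline libraries, as did 803 of the 13473 genes tested. Its log2 fold change was -0.38 ± 0.28 (edgeR adjusted p = 0.708). Mmp9, gelatinase B and the partner of TIMP-1 in its proenzyme form, had 2.71 to 7.19 CPM with C1q and 1.62 to 5.23 CPM with saline, which overlapped.

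Of 6 membrane-type MMPs, 2 were tested and 0 were called by any of the 3 tools with the filter on low counts. Mmp14, which activates proMMP-2 on a TIMP-2 bridge, stood at 132, 94.2 and 126 CPM in C1q libraries, against 77.2, 69.2 and 81.1 CPM in Saline libraries, and all C1q libraries were the higher ones. Its log2 fold change was 0.63 ± 0.17 (edgeR adjusted p = 0.410). The trio of this activation step had log2 fold changes of 1.02 for Mmp2, 0.63 for Mmp14 and 0.14 for Timp2. Mmp15 was at -0.06 ± 0.19.

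Among ADAM sheddases, which release membrane-bound ligands, 0 of 8 tested members were called by any of the 3 tools with that filter, and the median log2 fold change was 0.03. Unadjusted p was under 0.05 for 1 of the 8, against 4.22% of all genes in the higher direction. This was Adam8, a sheddase of leukocytes, at 0.88 ± 0.23 (edgeR adjusted p = 0.410). Adam17, the TNF-releasing enzyme that TIMP-3 blocks, was at 0.17 ± 0.19 and overlapped between groups, as did Adam33 at -0.86 ± 0.47, Adam28 at -0.47 ± 0.37 and Adam9 at 0.18 ± 0.15. Of 13 ADAMTS proteases tested, edgeR and limma-voom called 0 with that filter. DESeq2 called 1, Adamts4, in the higher direction, against 0.23% of all genes. Unadjusted p was under 0.05 for 5 in the higher and 2 in the lower direction, against 4.22% and 3.94% of all genes, with a median log2 fold change of 0.21. Adamts4, an aggrecanase that TIMP-3 inhibits, stood at 53.9, 70.5 and 95.2 CPM with C1q and 28.9, 23.1 and 44.1 CPM with saline, a log2 fold change of 1.18 ± 0.26 (edgeR adjusted p = 0.293, DESeq2 adjusted p = 0.0235). Adamts2, the procollagen amino-terminal proteinase, was at 0.82 ± 0.16, while Adamts13, which cuts von Willebrand factor, was at -1.08 ± 0.25 and Adamts14 at -1.38 ± 0.35. Adamts12 stood at 12.2, 9.17 and 18.5 CPM with C1q and 4.50, 2.83 and 6.72 CPM with saline, a log2 fold change of 1.47 ± 0.39 (edgeR adjusted p = 0.410).

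Another filter setting called more of these enzymes and inhibitors. Where low-count genes were kept, edgeR called 0.588% of 26890 genes higher, among them Mmp12, Mmp2, Mmp19 and Mmp14 (adjusted p = 6.79e-05, 1.94e-05, 0.000582 and 0.0381). Over the whole table that fit called 158 genes higher and 215 lower, against 4 higher and 0 lower with the filter. It also called Adamts4, Adamts2, Adamts12 and Adam8 (adjusted p = 5.91e-07, 0.00202, 0.00552 and 0.0168) and Serpine2 (0.0365). Their log2 fold changes in that fit were 0.66 to 2.49, all higher with C1q.

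**Figure D4:**
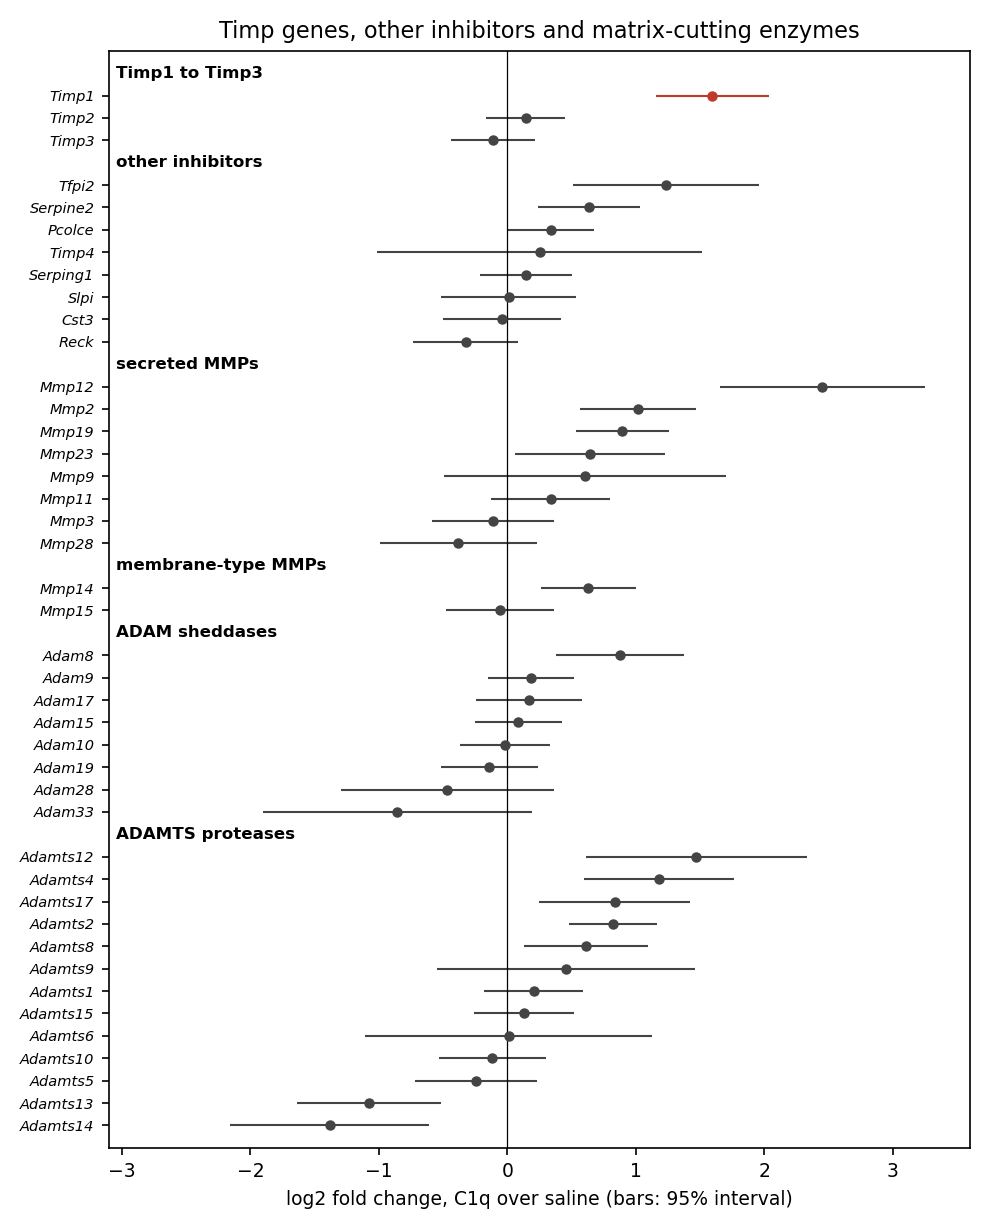
Log2 fold change of C1q over saline with 95% intervals (edgeR) for the tested members of each list, sorted by size within the list; red marks an adjusted p under 0.05. Timp1 at 1.60 is the only one in red, and Mmp12 at 2.45 lies farther out with a wider interval.

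Of the 9 tested genes for proteins that bind TIMPs, 0 were called by edgeR, DESeq2 or limma-voom, 1 had an unadjusted p under 0.05, against 4.22% of all genes in the higher direction, and the median log2 fold change was 0.05. That gene was Cd44, the hyaluronan receptor, at 0.31 ± 0.14. Cd63, the tetraspanin through which TIMP-1 signals, had 492, 357 and 366 CPM with C1q and 342, 385 and 265 CPM with saline, and overlapped between groups. Kdr, the VEGF receptor that TIMP-3 binds, had a log2 fold change of -0.33 ± 0.17, and Igf1r one of -0.35 ± 0.18 (edgeR adjusted p = 0.623 for each). Cd74, the invariant chain of MHC class II and a receptor for TIMP-1, was at 0.32 ± 0.19.

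Of 11 tested cytokine genes known to induce Timp1, edgeR and limma-voom called 0 and DESeq2 called 2, both higher, against 0.23% of all genes. Unadjusted p was under 0.05 for 4 in the higher and 1 in the lower direction, against 4.22% and 3.94% of all genes, and the median log2 fold change was 0.28. Il6 stood at 236, 217 and 262 CPM in C1q libraries, against 105, 121 and 131 CPM in Saline libraries (log2 fold change 1.00 ± 0.15, edgeR adjusted p = 0.10, DESeq2 adjusted p = 0.000182). Il1b was at 0.77 ± 0.15 (edgeR adjusted p = 0.236, DESeq2 adjusted p = 0.0390), and Osm and Lif, of the interleukin-6 family, at 0.69 ± 0.21 and 0.91 ± 0.31. Clcf1, of the same family, was at -0.67 ± 0.30. Il11 had too few counts to be tested. Where low-count genes were kept, edgeR called Il6, Il1b and Lif (adjusted p = 3.02e-05, 0.00441 and 0.0463). That fit called 158 genes higher and 215 lower over the whole table.

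Of 11 receptor genes for these cytokines 0 were called by any of the 3 tools, with a median log2 fold change of 0.13. Il6st, the shared signalling chain gp130, was at -0.03 ± 0.17, Lifr at -0.47 ± 0.20 and Il1r1 at 0.38 ± 0.17. The TGF-beta receptor genes Tgfbr3 and Tgfbr1 were at -0.27 ± 0.15 and 0.30 ± 0.18. Among 17 transcription factors and STAT3 targets 0 were called by any of the 3 tools with the filter on low counts and the median was 0.00. Bcl3, an NF-kB cofactor, stood at 50.1, 59.6 and 43.3 CPM with C1q and 27.0, 32.4 and 35.5 CPM with saline (log2 fold change 0.70 ± 0.18, edgeR adjusted p = 0.410, and 0.0299 with no filter on low counts). The AP-1 subunit genes Fosl1 and Fosl2 were at 0.76 ± 0.29 and 0.30 ± 0.16. Of other AP-1 genes, Fos and Jun were at -0.25 ± 0.15 and -0.33 ± 0.15 and Junb and Jund at 0.02 ± 0.15 and 0.03 ± 0.16. Socs3, the feedback inhibitor induced by STAT3, was at -0.15 ± 0.17.

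The genes most like Timp1 over the 6 libraries, by Pearson correlation of log2 CPM among 10341 other genes with a mean of at least 10 CPM, were Cfp (r = 0.998), Isca1 (0.997), Sirpb1c (0.992) and Lamp2 (0.990). Because the groups of Timp1 do not overlap, r mainly ranks genes by how cleanly they separate the groups, and 174 genes had r above 0.9. Cfp encodes properdin, which stabilizes the alternative pathway convertase. It stood at 31.5, 31.4 and 32.5 CPM in C1q libraries, against 17.0, 19.8 and 17.2 CPM in Saline libraries, a log2 fold change of 0.82 ± 0.18 (edgeR adjusted p = 0.279). Sirpb1c belongs to a family of near-identical copies, so its count is uncertain.

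Cfp is also the next protein-coding gene beyond Timp1 and Syn1 on chromosome X, from 20925454 to 20931555 on the opposite strand, 50718 bases from the end of Timp1. The other genes around Timp1 lay near 0. Araf, 9646 bases before Timp1, had a log2 fold change of -0.03 ± 0.15, Elk1, beyond Cfp, one of -0.02 ± 0.25, and Usp11 one of 0.17 ± 0.26. For Timp2 the most similar genes were P2ry10b (r = 0.998), Casp6 (0.997), Dpt (0.996) and Ctsa (0.995), with log2 fold changes of 0.23 to 0.48. For Timp3 they were Izumo4 (0.986), Dad1 (0.985), Tprgl (0.981) and Coq6 (0.981), with -0.42 to -0.14. The edgeR adjusted p of the 12 genes most like a member ranged from 0.231 to 0.831.

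Cell type markers bear on a bulk suspension, in which more cells of a type and more RNA per cell cannot be told apart. The 8 alveolar macrophage markers summed to 2796 to 3455 CPM in C1q libraries and 1161 to 2748 CPM in Saline libraries, and the 7 monocyte markers to 4146 to 4627 CPM in C1q libraries and 2763 to 3985 CPM in Saline libraries. Both lists hold Chil3, a secreted macrophage lectin, which alone had 2317 to 2783 CPM in C1q libraries and 749 to 2030 CPM in Saline libraries. Without Chil3 the alveolar macrophage sum was 479 to 673 CPM with C1q and 412 to 718 CPM with saline, so it overlapped. The monocyte sum without Chil3 was 1746 to 1844 CPM with C1q and 1857 to 2014 CPM with saline, lower in every C1q library. Most of it was Nr4a1, at 1200 to 1286 CPM with C1q and 1270 to 1420 CPM with saline. Ace added 365 to 472 CPM with C1q and 412 to 475 CPM with saline, and each of these genes overlapped. Ly6c2, Ccr2 and Fcgr1 were at log2 fold changes of 0.07 ± 0.20, 0.41 ± 0.26 and 0.43 ± 0.34. Spn was at -0.03 ± 0.20. Of the fibroblast markers 8 of 10 had all C1q libraries above all Saline libraries, against 8.12% of all genes, although their summed level overlapped. A large part of that sum was Inmt, which alone had 2596 to 3709 CPM with C1q and 2677 to 4713 CPM with saline. Inmt overlapped between the groups, at a log2 fold change of -0.21 ± 0.23, whereas 9 of the 10 markers had a positive one. The interstitial macrophage sum overlapped between the groups, at 864 to 941 CPM with C1q and 632 to 927 CPM with saline. Most of that sum was Apoe, which alone had 668 to 724 CPM with C1q and 510 to 781 CPM with saline and overlapped. Of the 7 tested members of the list, 4 lay above the Saline range, against 8.12% of all genes. Among them were C1qa, C1qb and C1qc at log2 fold changes of 1.05 ± 0.21, 0.88 ± 0.35 and 0.87 ± 0.25. Cx3cr1, of the same list, went the other way and lay below the Saline range in all C1q libraries, at -0.49 ± 0.27. Mesothelial, neutrophil and alveolar type 2 sums overlapped between the groups. The part of these cell types in the Timp1 difference was not tested. Endothelial markers had a negative log2 fold change in 8 of 8, against 51.8% of all genes, with sums of 2765 to 3410 CPM with C1q and 3274 to 3747 CPM with saline, and their part in the Timp3 values was not tested either. Every listed marker gene in the table had a count in at least 1 of the 6 libraries.

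**Figure D5:**
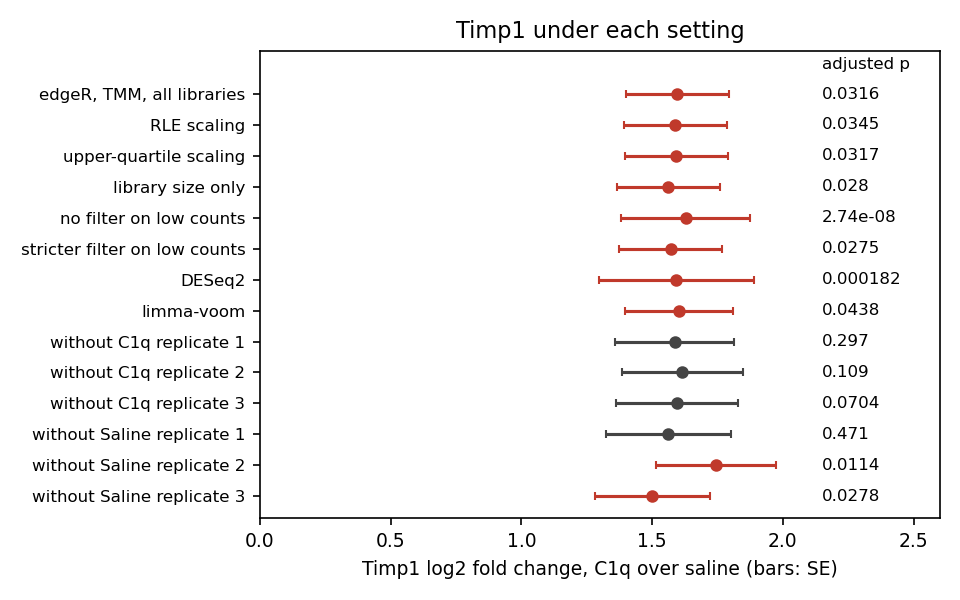
Timp1 log2 fold change of C1q over saline (points, with SE) under each scaling, filter, tool and left-out library, with the adjusted p at the right; red marks an adjusted p under 0.05. The log2 fold change lies between 1.50 and 1.74 throughout, whereas the adjusted p misses 0.05 in 4 of the 6 settings with 1 library left out.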

How the data were processed

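The authors deposited raw counts, 1 whole number for each gene symbol in each library. Per the submitters' processing notes, the tools included cutadapt 2.1.0 and Bowtie2 2.4.2 and the build was GRCm38. No source used here gives the counting tool, strand handling or use of unique molecules. Groups come from the treatment label; the treatment protocol text names C1q for all 6 libraries, so the Saline group rests on that label alone. Replicates were numbered 1 to 3 in order of deposition. No library was a copy of another within sampling noise (15 pairs, chi-square per degree of freedom 5.04 to 16.4), which does not show that they came from separate animals.

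Of 26890 genes, filterByExpr kept 13473. Counts were TMM-scaled and tested with edgeR 4.0.16 (glmQLFit, glmQLFTest, two-sided, with treatment alone in the model, Benjamini-Hochberg over all genes kept, threshold 0.05), a step tested on simulated data. The common biological coefficient of variation was 19.5%. SE and 95% intervals come from the F statistic. Level intervals are exact Poisson intervals and cover counting error only. Alternatives were RLE, upper-quartile and no scaling, other count filters, DESeq2 1.42.0, limma-voom (limma 3.58.1) and leaving out each library. The members and gene lists were chosen with earlier results of these data known. In each list, the text names called genes, the 4 with the smallest p-values and known partners of the members. Adam17, Mmp9, Mmp28, Clcf1, Il6st, Fos, Junb, Jund, Socs3, Adamts12, Inmt, the macrophage and monocyte markers and the genes around Timp1 were added after their values were seen. The inhibitor list as chosen held 1 more gene, which is left out of the list and not reported here. Promoters are from RefSeq (GRCm38.p6), matched by symbol for all 3 genes.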

Additional observations from a re-analysis of the deposited data

How the results depend on the processing

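The log2 fold change of Timp1 kept its sign in all 13 alternatives. It was 1.56 to 1.63 under the other scalings, filters and tools, each with an adjusted p under 0.05, the largest being 0.0438 with limma-voom. With 1 library left out it was 1.50 to 1.74, and the adjusted p ranged from 0.0114 to 0.471, missing the threshold without C1q replicates 1, 2 and 3 and without Saline replicate 1. These fits rest on fewer samples. Timp2 lay between 0.10 and 0.18 and Timp3 between -0.17 and -0.05 in their 13 alternatives, neither called in any. The log2 ratio of Timp1 to Timp2 differed by 1.40 to 1.59, of Timp1 to Timp3 by 1.66 to 1.81 and of Timp2 to Timp3 by 0.22 to 0.31 in the 7 alternatives of each. The number of genes called over the whole table was 4, against 373 with no filter on low counts (158 higher, 215 lower, the cause was not tested), 32 with DESeq2 (31 higher, 1 lower, the cause was not tested) and 0 to 10 with 1 library left out, the 0 being without Saline replicate 1 and the 10 without Saline replicate 3. No paired analysis was possible because the labels give the groups no shared replicate numbers. Depth limits Timp4 and the other genes with few counts, and the small group size limits all tests.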
